A study of Mus musculus with 8 samples.

Results

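The genes of blood clotting and clot breakdown F10, F7, F5, F13a1, F3, Thbs1, Thbd, Plaur and Plau, were followed in allografts and blood of transplanted mice, as 9 of the 24405 genes counted over 8 Microwell-seq libraries. They were chosen by name with earlier results of these data known, and their level was read in classes of cells gated on other genes. The comparisons with T cells were added after seeing the data. F10, F13a1 and Plaur were higher in 3 classes of myeloid cells than in T cells, although in Csf3r-positive cells only Plaur was still called under narrower gates, and F7 was higher in C1q-high macrophages than in T cells of the grafts, chiefly by counts of the 2 libraries that also held hepatocyte RNA in every class. F10 and F13a1 were lower in C1q-high macrophages than in Chil3-high cells of the same grafts, F7 was near 0 in blood, and F5, F3, Thbd and Plau gave few molecules.

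Clotting starts when tissue factor, the product of F3, meets factor VII in plasma. The complex activates factor X, which, with factor V as its cofactor, turns prothrombin into thrombin, and thrombin makes the fibrin that factor XIII then cross-links. Thrombomodulin (Thbd) on endothelium turns thrombin towards activating the anticoagulant protein C. Urokinase (Plau), bound to its receptor (Plaur), generates plasmin, which dissolves fibrin, and thrombospondin 1 (Thbs1) is a matrix protein that platelets and activated monocytes release. Hepatocytes make most of the circulating clotting factors, while monocytes and macrophages are known sources of tissue factor, factor XIII A chain and urokinase receptor.

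The libraries came from male mice of 8 weeks. Per the study's methods, BALB/c hearts, livers or kidneys had been placed in C57BL/6J recipients without immunosuppression, and grafts and blood were taken on day 7. BALB/c is the strain the labels give, which is that of the donors. Blood libraries of recipients of the 3 organs are written here as heart, liver and kidney PBMC, the lymphocyte libraries, isolated from collagenase-digested grafts on a Ficoll gradient, as heart, liver and kidney TIL, and the solid organ libraries as liver and kidney PC. Each organ and compartment was read in 1 library, the methods give 2 recipients per organ for blood and grafts together but not which animals a library holds, and the solid organ fraction of the heart was not analysed here. Organs were therefore not tested against each other, and p-values between blood and tissue rest on the spread among libraries of different organs.

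Of 80000 barcodes, 47542 held at least 500 UMIs (unique molecular identifiers, 1 per captured transcript) and were taken as cells, with the fewest (795) in kidney PC and the most (10000) in liver PC. The library totals ranged from 3418722 to 19171264 UMIs, and 60 to 1498 cells of a library carried a barcode found in another library as well. The library labelled heart TIL held 362 cells of the Kupffer gate and hepatocyte marker sums of 604 to 854 UMIs per 1000000 (CPM) in its classes. The library labelled liver TIL held none in that gate, 37.5 to 126 CPM of the same 10 hepatocyte markers, and 469 to 1193 CPM of 6 stromal markers, against at most 176 CPM elsewhere. These markers go against the organ names of both libraries, which are therefore given as labelled.

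Classes of cells were gated on UMIs per cell. Chil3-high cells had at least 5 UMIs of Chil3, fewer than 5 of C1qa, C1qb and C1qc together, and none of Csf3r. C1q-high cells had at least 5 UMIs of the 3 C1q genes and no Clec4f or Cd5l, and the Kupffer gate took the same cells with at least 1 UMI of Clec4f or Cd5l. Csf3r-positive cells had at least 1 UMI of Csf3r and fewer than 5 of C1q. The T cell gate asked for at least 2 UMIs of Cd3d, Cd3e and Cd3g and none of the other gates, and the endothelial gate for at least 3 UMIs over 2 of 10 endothelial genes. A class was used in a library from 20 cells up.

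The names were checked against markers that were not in the gate of the class itself. The 10 leading genes of Kupffer gate cells held 4 and 5 of the 10 Kupffer markers, and those of Csf3r-positive cells 3 or 4 of the 13 neutrophil markers in 5 of 6 libraries and none in heart PBMC. Those of C1q-high cells held 1 or 2 of the 10 macrophage markers, but none in kidney PC. T cell gate cells led with none of the 9 T cell markers in kidney PC and kidney TIL and with 1 to 5 elsewhere. In tissue, those 9 markers summed to 2604 to 4495 CPM in C1q-high cells and to 6731 to 8786 CPM in T cell gate cells. Chil3-high cells led with Chil3 and with F13a1 itself in 5 of 6 libraries, but in 4 of 6 also with Camp, Ngp, Ltf or Mmp8, which neutrophil precursors use, so the class is called by its gate and not monocytes. Its 9 monocyte markers summed to 23440 to 49930 CPM and its 13 neutrophil markers to 7527 to 181200 CPM, whereas T cell gate cells held 4364 to 12770 and 62.5 to 100400 CPM. Neutrophil RNA was thus counted in every class of heart PBMC, and its part in the members' levels was not tested.

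F10 and F7 lie beside each other on chromosome 8 on the plus strand, F7 at chr8:13026034-13035809 and F10 at chr8:13037308-13056676 (GRCm38, GENCODE vM21), with 1498 bases between them. The 250 bases before the start of these neighbours are shown, with those of F13a1 and Plaur, the other members with most molecules. Capitals mark matches, on either strand, to the PU.1 core GAGGAA, the C/EBP motif TTGCNNAA, the AP-1 motif TGANTCA, the SP1 box GGGCGG, the TATA box TATAAA or the HNF1 motif GTTAAT. The sequences are RefSeq promoters (GRCm38.p6), read 5′ to 3′ on the gene's strand.
F7, chr8:13025784-13026033, plus strand: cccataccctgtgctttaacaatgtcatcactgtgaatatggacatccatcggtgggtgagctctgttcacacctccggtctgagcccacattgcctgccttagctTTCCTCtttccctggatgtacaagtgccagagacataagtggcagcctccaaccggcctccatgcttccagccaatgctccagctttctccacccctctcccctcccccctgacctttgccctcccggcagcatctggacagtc
F10, chr8:13037058-13037307, plus strand: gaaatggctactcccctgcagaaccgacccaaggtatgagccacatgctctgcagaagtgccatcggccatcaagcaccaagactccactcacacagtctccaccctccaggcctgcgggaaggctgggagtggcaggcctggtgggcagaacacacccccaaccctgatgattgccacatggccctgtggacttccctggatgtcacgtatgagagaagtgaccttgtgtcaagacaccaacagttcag
F13a1, chr13:37050245-37050494, minus strand, the first of 2 promoters: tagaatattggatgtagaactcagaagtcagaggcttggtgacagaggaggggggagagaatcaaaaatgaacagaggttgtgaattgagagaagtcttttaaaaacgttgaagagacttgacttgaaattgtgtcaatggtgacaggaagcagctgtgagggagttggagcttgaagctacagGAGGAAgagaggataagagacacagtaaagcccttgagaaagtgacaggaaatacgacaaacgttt
Plaur, chr7:24462233-24462482, plus strand: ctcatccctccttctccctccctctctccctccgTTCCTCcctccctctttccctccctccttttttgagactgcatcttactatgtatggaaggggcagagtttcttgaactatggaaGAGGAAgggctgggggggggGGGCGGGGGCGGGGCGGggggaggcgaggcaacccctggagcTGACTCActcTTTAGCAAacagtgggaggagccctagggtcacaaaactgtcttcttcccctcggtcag
RefSeq promoters were matched for 6 of the 9 members. In the full windows, which run on 50 bases past the start, the PU.1 core was found in 3 of the 6 (F7, F13a1, Plaur) and in 28.3% of all 32851 promoters, and AP-1 in 2 of 6 (F3, Plaur) and in 7.8%. The SP1 box was in 3 of 6 (F5, F3, Plaur; 35.7% of all), the C/EBP motif in 1 of 6 (Plaur; 10.8%), the TATA box in 1 of 6 (F3; 13.6%) and the HNF1 motif in none (7.1%). The F10 window held none of the 6 motifs. Some SP1 boxes of Plaur abut each other, and a match is a string of letters, not a measured binding site.

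F10 encodes factor X. In Chil3-high cells its level was 126 CPM in heart PBMC (111 UMIs), 189 in liver PBMC (163 UMIs) and 172 in kidney PBMC (4 UMIs, exact Poisson 95% interval 46.9 to 441). In tissue it was 180 CPM in the library labelled heart TIL (167 UMIs), 206 in that labelled liver TIL (18 UMIs) and 259 in liver PC (580 UMIs). The T cell gate was taken as the background of each library, in which free RNA and doublets were not told apart. It held 10.2, 34.9 and 9.94 CPM of F10 in heart, liver and kidney PBMC, 53.6, 43.1 and 11.4 CPM in the TIL libraries in the same order, and 39.7 and 51.0 CPM in liver and kidney PC. Every Chil3-high level thus lay above every T cell gate level.

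Across the other classes F10 was graded. C1q-high cells held 121 CPM in the library labelled heart TIL, 146 in liver PC and 60.5 in the library labelled liver TIL. In both libraries with Kupffer gate cells these held less than the C1q-high cells, with 75.6 and 115 CPM, and the counting intervals of the classes did not overlap in either library. Csf3r-positive cells held 58.1, 89.0 and 8.13 CPM (1 UMI) in heart, liver and kidney PBMC and 126, 80.0 and 191 CPM in the libraries labelled heart TIL and liver TIL and in liver PC. The kidney TIL and PC libraries gave 1 and 4 F10 UMIs in C1q-high cells, too few to place them.

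The share of cells with an F10 molecule was read as well. With every cell thinned to 500 UMIs, 4.95% to 12.1% of Chil3-high cells had 1 or more F10 UMIs in the 5 libraries with at least 92 such cells, and none of the 22 did in kidney PBMC, where 3 had one before thinning. The thinned share in T cell gate cells was 0.310% to 3.27%. Before thinning, liver PC had F10 in 33.2% of Chil3-high cells and 6.56% of T cell gate cells, at median depths of 1444 and 1485 UMIs. These intervals and limits cover counting error only.

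F13a1 encodes the A chain of factor XIII, the transglutaminase that cross-links fibrin. In Chil3-high cells it stood at 192 CPM in heart PBMC (169 UMIs), 375 in liver PBMC (324 UMIs) and 258 in kidney PBMC (6 UMIs), and at 121, 320 and 162 CPM in the libraries labelled heart TIL and liver TIL and in liver PC. C1q-high cells held 41.3, 51.3 and 56.2 CPM in those 3 tissue libraries, and Kupffer gate cells 22.5 and 34.4 CPM in the library labelled heart TIL and in liver PC. Csf3r-positive cells held 67.8, 162 and 24.4 CPM in heart, liver and kidney PBMC and 40.0 to 68.9 CPM in tissue, while T cell gate cells held 0 to 34.9 CPM over the 8 libraries.

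Chil3-high cells therefore carried the highest F13a1 level of any class in each of the 6 libraries that had them. Thinned to 500 UMIs, 6.11% to 13.6% of them had an F13a1 molecule, against 0 to 1.40% of T cell gate cells. Before thinning the shares were 9.47% to 23.8% at median depths of 797 to 1444 UMIs and 0 to 3.31% at 590 to 1485 UMIs. Platelets also hold F13a1 transcripts. The 8 platelet markers summed to 0 to 135 CPM in Chil3-high cells and 55.5 to 291 CPM in C1q-high cells, against 2.49 to 118 CPM in T cell gate cells. The part of platelet RNA in the F13a1 levels was not tested. Antisense genes overlap F13a1 in the annotation, and the strand of counting is not stated in the sources used here.

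F7 encodes factor VII, the plasma protease that tissue factor binds, and its usual source is the hepatocyte. C1q-high cells held 26.4 CPM in the library labelled heart TIL (67 UMIs), 28.5 in liver PC (171 UMIs) and 5.38 in the library labelled liver TIL (17 UMIs). Kupffer gate cells held 18.4 and 21.8 CPM in the first 2 of these, with counting intervals that overlapped those of the C1q-high cells. C1q-high cells of kidney PC and kidney TIL gave no F7 UMI, with exact Poisson 95% upper limits of 68.2 and 35.9 CPM. T cell gate cells held 11.1, 6.37 and 3.28 CPM in the first 3 libraries and no F7 UMI in the other 5.

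Because hepatocyte RNA was present in every class of the library labelled heart TIL and of liver PC, F7 was set against liver-made genes by the ratio of each class to the T cell gate of its own library. In C1q-high cells that ratio was 2.38 (95% counting interval 1.56 to 3.67) for F7 in the library labelled heart TIL and 4.48 (3.20 to 6.38) in liver PC. In the library labelled liver TIL it was 1.64 (0.647 to 4.68). For Fgb, the fibrinogen beta chain, the first 2 libraries gave 1.15 (0.939 to 1.40) and 1.27 (1.04 to 1.55), and for Alb, albumin, 1.21 (1.02 to 1.42) and 1.62 (1.41 to 1.87). For Fgg, the fibrinogen gamma chain, it was 1.49 (1.13 to 1.97) and 1.32 (1.03 to 1.69). The other liver-made genes with a ratio, Fga, Serpinc1, F2 and Plg (plasminogen), lay at 0.957 to 1.10 in the library labelled heart TIL and at 1.27 to 1.55 in liver PC. In liver PC the F7 interval overlapped those of F2 (0.747 to 3.22) and Plg (0.488 to 3.33), which rest on few UMIs. In the library labelled heart TIL it overlapped those of F2, Plg, Fgg and Serpinc1. In Chil3-high cells the library labelled heart TIL gave an F7 ratio of 1.26 (0.615 to 2.44) and liver PC one of 2.87 (1.83 to 4.50). Kupffer gate cells gave F7 ratios of 1.66 (0.702 to 3.505) and 3.42 (2.11 to 5.50) in the same order. The part of hepatocyte RNA in the F7 levels was not tested.

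**Figure D1:**
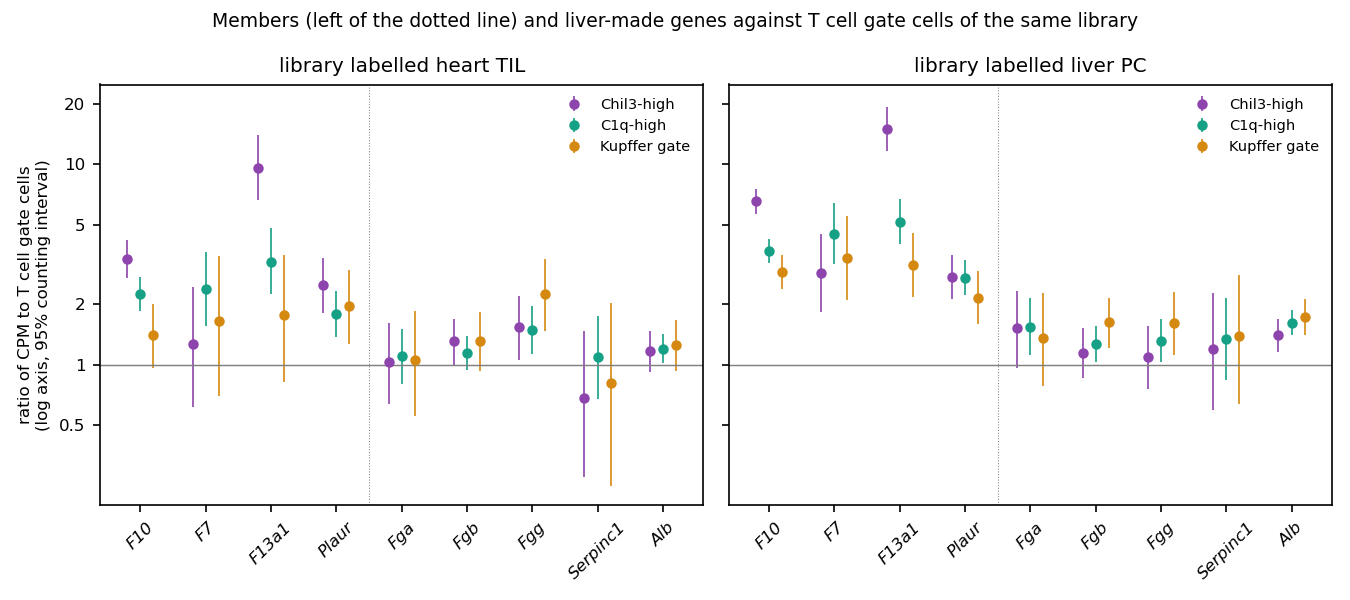
Ratio of the CPM of a class to that of T cell gate cells of the same library on a log axis, with 95% counting intervals, for the library labelled heart TIL (left panel) and liver PC (right panel), with colours for the 3 classes and a grey line at a ratio of 1. In C1q-high cells Fgb lies at 1.15 and 1.27, Fgg at 1.49 and 1.32, Alb at 1.21 and 1.62 and F7 at 2.38 and 4.48. In the left panel the F7 interval of these cells overlaps those of Fgg and Serpinc1. F13a1 in Chil3-high cells lies at 9.55 and 14.9.

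Plaur encodes the urokinase receptor. Csf3r-positive cells held 177, 146 and 122 CPM in heart, liver and kidney PBMC and 87.9, 203 and 114 CPM in the libraries labelled heart TIL and liver TIL and in liver PC. Chil3-high cells held 151, 115 and 344 CPM (8 UMIs) in the blood libraries and 77.6, 240 and 55.4 CPM in the same tissue libraries, where C1q-high cells held 55.9, 102 and 54.7 CPM. The T cell gate ranged from 5.67 to 72.6 CPM, and within each library it lay below the Csf3r-positive cells. The library labelled liver TIL gave the highest tissue level in each class it held.

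**Figure D2:**
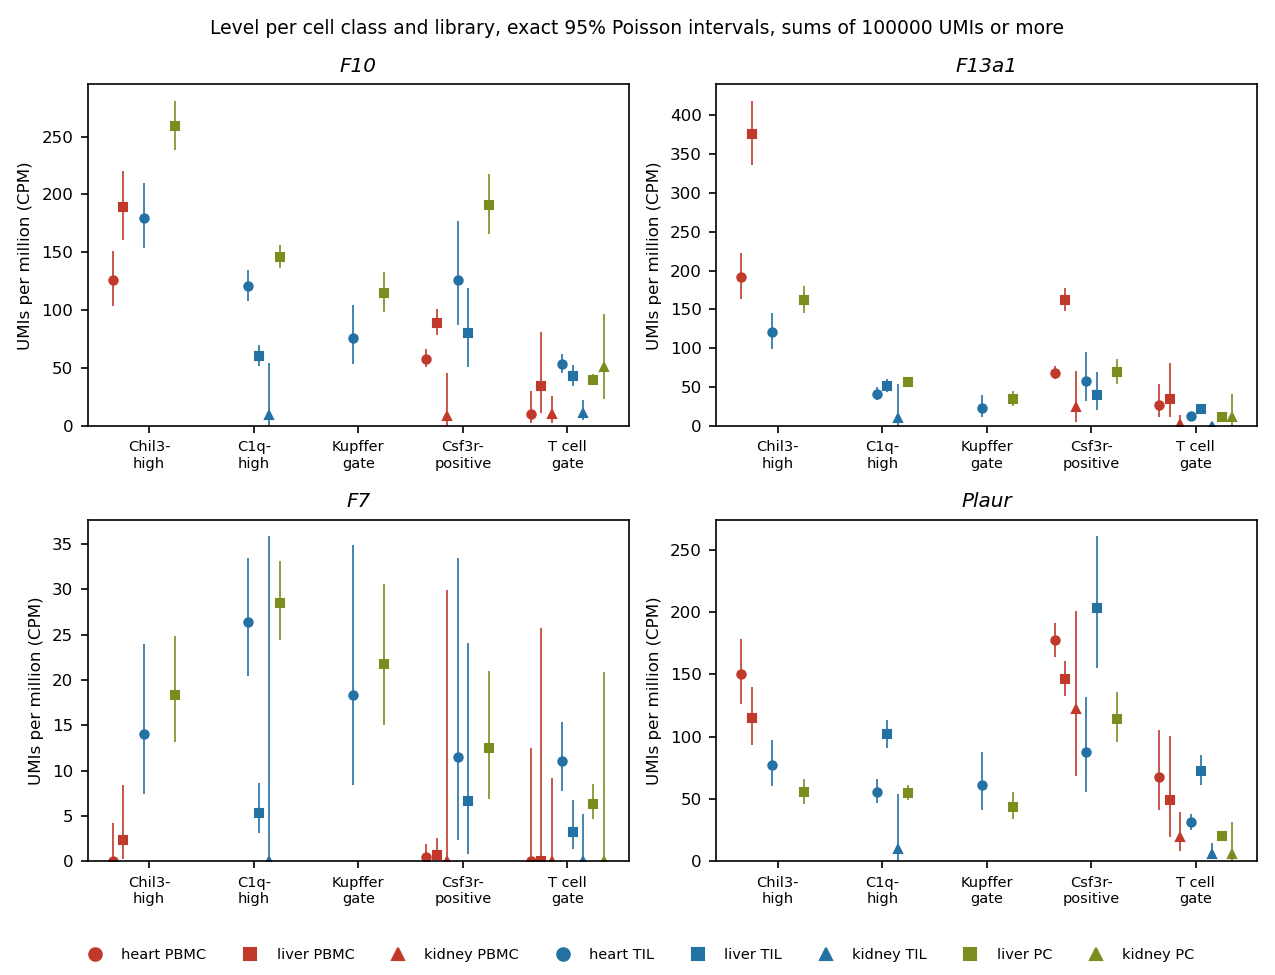
Level of F10, F13a1, F7 and Plaur in UMIs per 1000000 (CPM, linear axis from 0) by cell class and library, with exact Poisson 95% intervals, for class sums of at least 100000 UMIs. Colours mark blood (PBMC), lymphocyte (TIL) and solid organ (PC) libraries and symbols the organ label. Chil3-high cells stand above the T cell gate for F10 and F13a1 in every library shown, and F7 is near 0 in blood.

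Thbs1 was counted in 326 UMIs over all classes, and the library labelled liver TIL stood apart in each. There it reached 28.8 CPM in C1q-high cells (91 UMIs), 68.6 in Chil3-high cells (6 UMIs), 49.97 in Csf3r-positive cells (15 UMIs) and 21.1 in T cell gate cells (45 UMIs). The levels of liver PC were 8.51, 12.9, 5.37 and 3.19 CPM in the same order. Stromal markers were also highest in the library labelled liver TIL, as given above, and their part in its Thbs1 level was not tested. A gene on the opposite strand overlaps Thbs1.

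F3, tissue factor, was counted in 135 UMIs. Its highest level, 56.6 CPM, came from 17 UMIs in Csf3r-positive cells of the library labelled liver TIL, at 4.48 times (2.29 to 8.52) the T cell gate, which held 12.7 CPM. C1q-high cells of that library held 11.1 CPM (35 UMIs), no more than the T cell gate, and the stromal sum of its Csf3r-positive cells was the highest of any class, at 1193 CPM. Over the other libraries, F3 gave no more than 7 UMIs in any myeloid class.

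F5, factor V, was counted in 95 UMIs. Csf3r-positive cells held 4.73 CPM in heart PBMC (18 UMIs) and 7.39 in liver PBMC (21 UMIs), and Chil3-high cells of liver PC held 5.80 CPM (13 UMIs) where the T cell gate held 0.435 CPM (3 UMIs). C1q-high cells gave 2, 5 and 0 F5 UMIs in the library labelled heart TIL, in liver PC and in the library labelled liver TIL, and the last count has an exact Poisson 95% upper limit of 1.17 CPM. F5 did not pass the filter in the comparison of C1q-high with Chil3-high cells. It was lower in C1q-high cells in 3 alternatives of that comparison that could test it, at -2.58 with no filter (edgeR adjusted p = 0.0322), -1.72 with overlapping gates (0.0219) and -3.05 without the library labelled heart TIL (0.0364). In the last of these F5 passed the filter only through Chil3-high cells, so it could be called lower in C1q-high cells but not higher. An annotated pseudogene and an opposite-strand RNA overlap F5.

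Thbd, thrombomodulin, was counted in 65 UMIs. The endothelial gate, with 28 cells in the library labelled heart TIL and fewer than 20 elsewhere, held 4 Thbd UMIs, or 149 CPM (40.5 to 380). Among myeloid classes the largest count was 11 UMIs, or 3.87 CPM, in Csf3r-positive cells of liver PBMC. Plau, urokinase, was counted in 74 UMIs, of which 11 lay in Kupffer gate cells of liver PC, at 7.27 CPM (3.63 to 13), beside 2.33 CPM (1.28 to 3.92) in C1q-high cells and 1.01 CPM in T cell gate cells of that library. No Plau UMI was found in Csf3r-positive cells of the 3 blood libraries. The tables list F5, Thbs1 and Thbd in 7 of 8 libraries and Plau in 6, and unlisted genes were taken as 0.

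**Figure D3:**
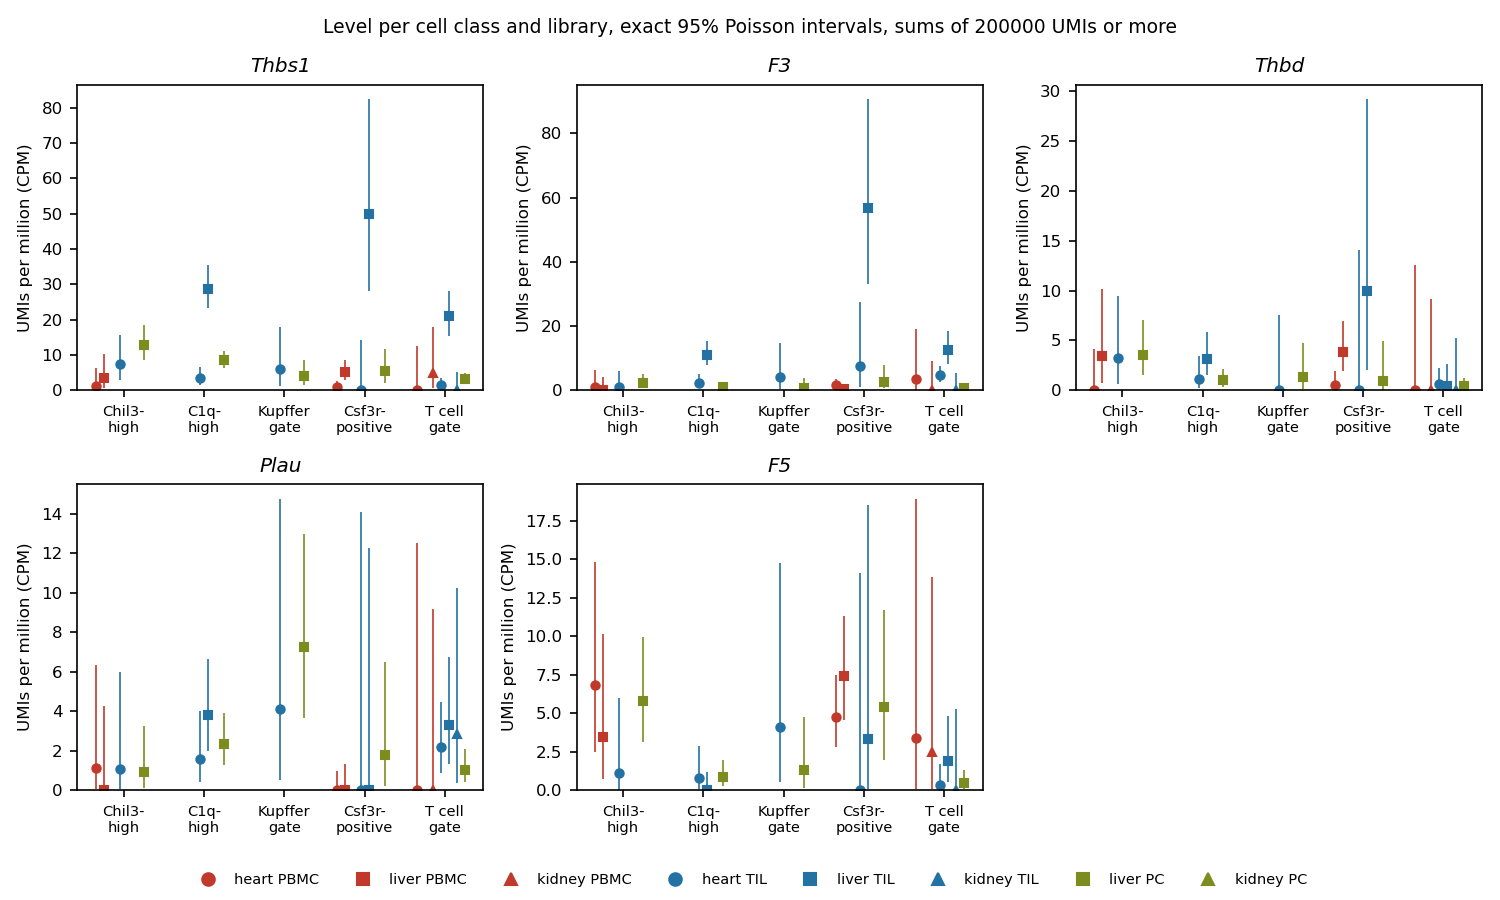
Level of Thbs1, F3, Thbd, Plau and F5 in UMIs per 1000000 (CPM, linear axis from 0) by cell class and library, with exact Poisson 95% intervals, for class sums of at least 200000 UMIs. Colours mark the compartment and symbols the organ label. The library labelled liver TIL is highest for Thbs1 and F3, and most other points have intervals that reach close to 0.

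The class contrasts were tested on UMIs summed per library and class with edgeR's quasi-likelihood test, with Benjamini-Hochberg adjustment over all genes tested. Against T cell gate cells of the same libraries, C1q-high cells of 5 tissue libraries had 5 of 6 tested members higher at an adjusted p under 0.05, where 18.9% of all 11320 genes tested were called higher, 18.8% lower and 37.8% either way. The log2 fold changes were 1.37 (SE 0.14) for F10, 1.98 (0.17) for F13a1, 1.78 (0.22) for F7, 1.07 (0.14) for Plaur and 1.04 (0.26) for Thbs1, with adjusted p-values from 6.91e-31 to 0.000310 by edgeR. Plau, at 0.53 (0.44), did not pass (adjusted p = 0.360).

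Chil3-high cells had all 4 members that passed the filter higher than T cell gate cells over 6 libraries, where 17.1% of all 9243 genes tested were higher, 13.3% lower and 30.4% either, or 1577 higher and 1230 lower. With DESeq2's size factors in the same edgeR fit these counts were 1381 and 1793, since that scaling moved the median of all genes from -0.03 to -0.14 on the log2 scale, and the 4 members stayed higher. The log2 fold changes were 2.52 (SE 0.20) for F10, 3.77 (0.21) for F13a1, 1.65 (0.19) for Plaur and 2.05 (0.37) for Thbs1, with adjusted p-values up to 3.06e-07. Csf3r-positive cells also had all 4 tested members higher over 6 libraries, where 17.8% of all genes were higher, 9.9% lower and 27.7% either, at 1.82 (0.23), 2.29 (0.23), 2.11 (0.19) and 1.36 (0.41) for the same genes, with edgeR adjusted p-values up to 0.0112.

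With narrower gates, chosen after seeing the data, in which Csf3r-positive cells carried no Csf1r, Ccr2 or Ms4a4c and fewer than 5 Chil3 UMIs, F10 and F13a1 no longer passed against the T cell gate. Their log2 fold changes were then 0.58 and 0.28, with edgeR adjusted p-values of 0.0509 and 0.499, and Plaur was the only one of 3 tested members called, where 1165 of 8150 genes were higher. The T cell gate also took in more cells under this setting, 515 instead of 286 in heart PBMC and 225 instead of 151 in liver PBMC, so the change of the class and that of its comparator cannot be told apart. The corresponding narrow Chil3-high class, which required Csf1r, Ccr2 or Ms4a4c and none of 6 neutrophil genes, had all 4 members that passed its filter higher, F10, F13a1, F7 and Plaur, at 2.08, 2.54, 1.56 and 1.20 over 5 libraries, where 973 of 8154 genes were higher, while Thbs1 did not pass that filter. That class kept 28 of 929 Chil3-high cells in heart PBMC and 253 of 905 in liver PBMC. In tissue it kept 509 of 982 in the library labelled heart TIL and 567 of 1233 in liver PC.

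Between the 2 main classes of the grafts, the question was which members set macrophages apart from Chil3-high cells. C1q-high cells were compared with Chil3-high cells in the libraries labelled heart TIL and liver TIL and in liver PC. The C1q-high gate set no upper limit on Chil3 or Csf3r. In liver PC 2838 cells held at least 5 Chil3 UMIs, of which 1233 were in the Chil3-high class. Of 8 tested members 2 were called, both lower in C1q-high cells, where 3.04% of 11682 genes were called, 1.69% higher and 1.35% lower. F13a1 was lower by a log2 fold change of -1.64 (SE 0.13, edgeR adjusted p = 1.99e-35) and F10 by -0.80 (0.11, adjusted p = 6.17e-10), each in 3 of 3 libraries. The median log2 fold change was -0.53 over the 8 members and 0.02 over all genes.

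F7 pointed the other way in that contrast, at 0.60 (SE 0.24), and did not pass (edgeR adjusted p = 0.234), nor did Plaur at -0.29 (0.14, adjusted p = 0.443), Thbs1 at -0.76 (0.32, adjusted p = 0.290) or Thbd at -1.88 (0.66, adjusted p = 0.112). F7 passed without the library labelled liver TIL, at 0.71 with an edgeR adjusted p of 0.0251. F10 did not pass without liver PC (-0.82, edgeR adjusted p = 0.107), whereas F13a1 passed in all 12 alternatives. Of these, a mitochondrial filter changed no class sum, and lymphocyte libraries only repeats the fit without liver PC. Camp and Ngp were also lower in C1q-high cells, at -2.80 and -2.99, and the part of neutrophil RNA in the F10 and F13a1 contrasts was not tested. Both stayed called with the narrow gates, which changed the Chil3-high class but not the C1q-high class.

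In blood, Csf3r-positive cells were compared with Chil3-high cells of the same 3 libraries. The Csf3r-positive gate set no upper limit on Chil3. In heart and liver PBMC 2269 and 1766 cells held at least 5 Chil3 UMIs, of which 929 and 905 were in the Chil3-high class. Of 5 tested members 2 were called, both lower in Csf3r-positive cells, where 5.66% of 8583 genes were called, 3.69% higher and 1.97% lower. F13a1 had a log2 fold change of -1.23 (SE 0.18, edgeR adjusted p = 5.60e-08) and F10 of -0.99 (0.19, adjusted p = 3.76e-05), each lower in 3 of 3 libraries. Ccr2, Lyz2 and Camp were also called lower, at -1.108, -1.035 and -1.345, and S100a8 and Trac higher, at 1.195 and 0.713. The part of such shifts in cell type in the F10 and F13a1 contrasts was not tested. Plaur, at 0.37 (0.19), did not pass (edgeR adjusted p = 0.286). The F10 call was also lost in cells of at least 1000 UMIs (-0.84, edgeR adjusted p = 0.0661) and with the narrow gates (-1.24, adjusted p = 0.298), each over 2 libraries. Without heart PBMC the log2 fold changes were -1.19 for F10 and -1.33 for F13a1 (edgeR adjusted p = 0.364 and 0.212), and without liver PBMC they were -1.26 and -1.58 (adjusted p = 0.999 and 0.966). They were thus no smaller without either library, and 6 and 0 genes in all passed in those fits.

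**Figure D4:**
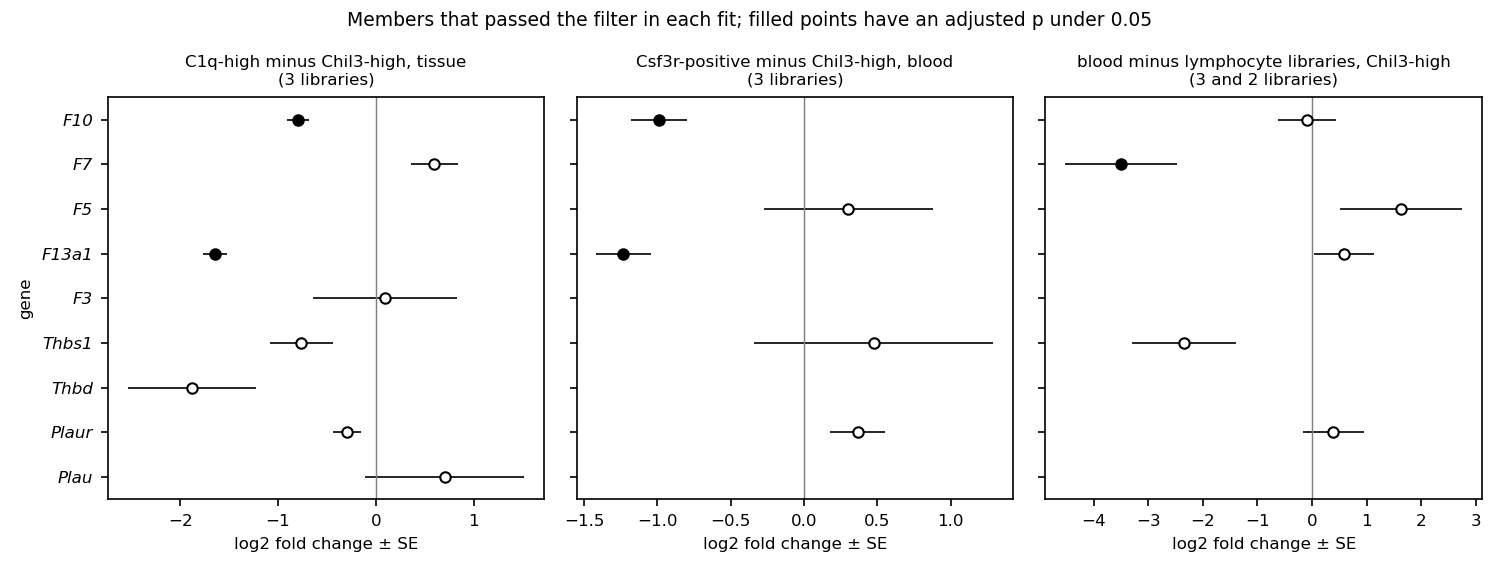
Log2 fold change with its SE for the members tested in 3 contrasts: C1q-high minus Chil3-high cells in tissue, Csf3r-positive minus Chil3-high cells in blood, and blood minus lymphocyte libraries in Chil3-high cells. Filled points have an edgeR adjusted p under 0.05, and F10 and F13a1 are filled and below 0 in the first 2 panels and F7 in the third. F7 passed the filter in the third only through the lymphocyte libraries, so it could not be called higher in blood.

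Blood was then compared with tissue. In Chil3-high cells F7 gave 0, 2 and 0 UMIs in heart, liver and kidney PBMC, and 13 and 3 UMIs in the libraries labelled heart TIL and liver TIL, or 14.0 and 34.3 CPM. Pooled over libraries, blood held 2 F7 UMIs of 1768945 and the lymphocyte libraries 16 of 1015214, a ratio of 0.0717 (95% counting interval 0.00800 to 0.305). F7 was the 1 of 6 tested members called, with an edgeR adjusted p of 0.0180 (log2 fold change -3.50, SE 1.02), where 5% of 8861 genes were called, 2.35% higher and 2.65% lower in blood. It passed the filter on low counts only through the lymphocyte libraries, so it could be called lower in blood but not higher. F7 was called in 1 of the 5 fits with a library left out, that without liver PBMC. Its log2 fold change was -2.64 without heart PBMC (edgeR adjusted p = 0.118), -3.51 without kidney PBMC (0.0537), -3.22 without the library labelled liver TIL (0.0713) and -3.59 with DESeq2 (0.597). Without the library labelled heart TIL, which held 13 of the 16 tissue UMIs, F7 did not pass the filter.

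F10 did not differ beyond the spread of the libraries between blood and tissue Chil3-high cells, at -0.09 (SE 0.53, edgeR adjusted p = 0.977), nor did F13a1 at 0.58 (0.55, adjusted p = 0.735) or Plaur at 0.39 (0.56, adjusted p = 0.851). These SEs are wide enough to leave differences of more than 1 on the log2 scale unseen. The hepatocyte marker sum of Chil3-high cells was 43.0 to 75.3 CPM in blood and 690 and 126 CPM in the 2 lymphocyte libraries, and the stromal sum was 0 in blood. Their macrophage, peritoneal macrophage and T cell marker sums were also higher in both lymphocyte libraries than in blood, and the neutrophil sum was lower. The part of these other cell types in the F7 difference was not tested. In Csf3r-positive cells, none of 4 tested members was called by edgeR or DESeq2, and none had an unadjusted p under 0.05, where 2.63% of 7308 genes were called, 1.11% higher and 1.52% lower in blood. The 3 blood and 2 lymphocyte libraries gave F13a1 1.28 (SE 0.64, edgeR adjusted p = 0.283), and F10 -0.39 (0.59, adjusted p = 0.740). With the organ label as a block, which pairs blood and lymphocyte libraries by organ and not by known animal, 2 of the 4 were called by edgeR, F13a1 higher in blood (1.55, adjusted p = 0.0145) and Thbs1 lower (-2.53, adjusted p = 0.0176), among 1360 genes instead of 192. This Thbs1 call leans on the library labelled liver TIL, which held 15 Thbs1 UMIs in Csf3r-positive cells. Without that library the unblocked Thbs1 log2 fold change reversed to 6.04. In Chil3-high cells the block added Thbs1 (-3.46, edgeR adjusted p = 0.0349) to F7. Markers go against the organ labels of both lymphocyte libraries, on which this pairing rests.

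Of the pathway's other genes, 47 were listed as clotting factors, anticoagulants, fibrinolysis genes, thrombin receptors, factor synthesis genes or receptor partners. Between C1q-high and Chil3-high cells, 36 were tested, 1 was higher and 1 lower, beside 3.04% of all genes called, 1.69% higher and 1.35% lower. Procr, the endothelial protein C receptor, was higher at 1.20 (SE 0.20, edgeR adjusted p = 2.97e-07). Anxa2, a cell-surface docking protein for plasminogen, was lower at -0.72 (0.12, adjusted p = 5.29e-07). Procr stood at 40.5, 51.0 and 35.1 CPM in C1q-high cells of the library labelled heart TIL, liver PC and the library labelled liver TIL, and at 100.1 and 91.8 CPM in Kupffer gate cells of the first 2. Chil3-high cells held 20.5, 19.2 and 45.8 CPM of Procr in the same order. The last value, from 4 UMIs, was not below that of C1q-high cells. C1q-high cells of kidney TIL held 214 CPM (22 UMIs), 25.1 times (9.88 to 75.7) the T cell gate of that library.

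Genes that hepatocytes make were counted in both T cell gate and myeloid cells of the library labelled heart TIL and of liver PC. In the library labelled heart TIL, Fga, the fibrinogen alpha chain, held 29.9, 28.0 and 27.1 CPM in C1q-high, Chil3-high and T cell gate cells, and Serpinc1, antithrombin, 13.8, 8.62 and 12.6 CPM. F2, prothrombin, held 5.90, 4.31 and 6.17 CPM in those cells. Fgg was less even there, with 46.0, 47.4 and 30.8 CPM in the same order and 69.4 CPM in Kupffer gate cells, 2.25 times (1.48 to 3.36) the T cell gate. Csf3r-positive cells of that library held 65.0 CPM of Fgg, 2.11 times (1.18 to 3.55) the T cell gate, and 22.9 CPM of F2 (6 UMIs), 3.72 times (1.22 to 9.61). None of Fga, Fgb, Fgg, Serpinc1 and F2 gave a UMI in Chil3-high cells of heart or liver PBMC.

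Against T cell gate cells, 12 of 29 tested pathway genes were higher in C1q-high cells and 7 lower, with 18.9% and 18.8% of all genes. Procr had the largest fold change among them, at 2.27 (SE 0.17), and Vwf (2.26), von Willebrand factor, and Pros1 (1.41), which encodes the anticoagulant protein S, were also higher. All 4 thrombin receptor family genes were lower, F2r at -1.16, F2rl1 at -1.29, F2rl2 at -1.10 and F2rl3 at -1.34. F2r held 42.5, 60.6 and 44.0 CPM in the T cell gate and 23.6, 22.7 and 15.2 CPM in C1q-high cells of the library labelled heart TIL, liver PC and the library labelled liver TIL. The edgeR adjusted p-values of these genes were 0.000746 or less.

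Blood and lymphocyte Chil3-high cells differed in 2 of 20 tested pathway genes, both lower in blood, where 5% of all genes were called and 2.65% were lower, and Procr was among them. It gave 2 UMIs in blood and 23 in the lymphocyte libraries, a ratio of 0.0499 (0.00570 to 0.202). Like F7, Procr passed the filter only through the lymphocyte libraries, so it could not be called higher in blood. In Csf3r-positive cells none of 15 passed, where 2.63% of all genes did. Between Csf3r-positive and Chil3-high cells of blood 1 of 15 passed, near the 5.66% of all genes, which was Lrp1, an endocytic receptor that clears protease complexes, at -0.91 (SE 0.30, edgeR adjusted p = 0.0414).

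Over 20 class sums of myeloid and endothelial cells, the Pearson correlation of log2(CPM + 10) was 0.673 between F10 and F13a1 and 0.547 between F10 and its neighbour F7, but 0.190 between F7 and F13a1. These points share libraries and depth and carry no test. The genes most like F10 over those sums were Prtn3 (0.891), Nit1 (0.855) and Irf5 (0.840), and those most like F13a1 were Plac8 (0.949), Gm9733 (0.933) and Gpr141 (0.930). For Plaur they were Amn1 (0.927), Irf1 (0.903) and Selenok (0.887), and for F7, with 379 UMIs, Zbed3 (0.945), Chek1 (0.935) and Rufy3 (0.915). F5, F3, Thbs1, Thbd and Plau rested on 51 to 252 UMIs each, and their nearest genes were Atad2b (0.883), Cxcl3 (0.783), Spag9 (0.833), Sntb2 (0.923) and Npl (0.938). For Thbd and Plau the highest values by far, 148.6 and 37.15 CPM, were 4 UMIs and 1 UMI in the endothelial gate. Their correlations lean on that sum.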

How the data were processed

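Single cells of 3 blood, 3 lymphocyte and 2 solid organ preparations were profiled by Microwell-seq, a microwell method that tags the 3′ ends of transcripts. The authors processed the reads with Drop-seq tools and STAR on GRCm38, discarded reads aligned to several places, merged UMIs 1 edit apart and deposited UMI counts per gene and barcode; the GENCODE release is not given in the sources used here. Cells had at least 500 UMIs, no doublets were removed, and classes were gated as the report states. Levels are UMIs per 1000000 of a class sum (CPM) with exact Poisson 95% intervals; shares were read after thinning to 500 UMIs. Sums per library and class of at least 20 cells were tested in edgeR 4.0.16 (R 4.3.3; quasi-likelihood, TMM, filterByExpr with min.count 3 and min.total.count 10, threshold 0.05), with library as a block where classes of 1 library were compared. DESeq2 1.42.0 and the other settings were alternatives. The scripts were tested on simulated data. Named genes were the 9 members, pathway genes past a threshold, liver-made factors and the 3 genes most like each member. The comparisons with T cell gate cells and the narrow gates were added after seeing the data, and the members and lists were chosen with earlier results of these data known. Blood and grafts of an organ came from the same 2 recipients per the methods, so organ was tried as a block; heart minus liver differences of blood and lymphocyte libraries correlated at 0.229 in Chil3-high and 0.176 in Csf3r-positive cells. Which animals a library holds is not given, so p-values measure the spread between libraries. The values of 1 pathway gene that enters the counts are not reported here.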

Additional observations from a re-analysis of the deposited data

How the results depend on the processing

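Between C1q-high and Chil3-high cells of tissue, 355 genes and 2 members were called. The counts were 105 genes with DESeq2, 133 with the narrow gates, 76 genes and 1 member with lymphocyte libraries only, 5 members with overlapping gates (F10, F13a1, F5, Plaur and Thbs1, all lower), and 76 to 568 genes and 1 to 3 members with a library left out, F5 being the added one without the library labelled heart TIL and F7 without that labelled liver TIL. Of Chil3-high cells of blood against lymphocyte libraries (443 genes, 1 member), 48 genes and 0 members were called with DESeq2, 206 and 0 with the narrow gates, 977 and 2 with overlapping gates, 866 genes with all tissue libraries, 0 members from 1000 UMIs up, and 73 to 439 genes and 0 to 1 members with a library left out. Of Csf3r-positive cells of blood against lymphocyte libraries (192 genes, 0 members), 744 and 1 were called with no filter, 555 and 2 with overlapping gates, 668 and 1 with all tissue libraries, 14 genes from 1000 UMIs up, 102 without shared barcodes, and 31 to 655 genes and 0 to 2 members with a library left out. Between Csf3r-positive and Chil3-high cells of blood (486 genes, 2 members), 58 and 1 were called with DESeq2, 60 and 1 from 1000 UMIs up, 132 and 1 with the narrow gates, and 0 to 661 genes and 0 to 2 members with a library left out, where 0 fell without liver PBMC, with 209 genes at an unadjusted p under 0.05 by edgeR. Against T cell gate cells, C1q-high cells had 4276 genes, 2846 with DESeq2 and 2468 to 4505 with a library left out. Chil3-high cells had 2807 genes, 1776 with the narrow gates and 1665 to 2880 with a library left out, and 4 members, 7 with no filter and 4 to 6 with a library left out. Csf3r-positive cells had 4 members, 7 with overlapping gates, 1 with the narrow gates and 3 to 6 with a library left out. The cause of these moves was not tested.

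Of 459 log2 fold changes of members under alternatives, 419 kept direction and call, 14 lost the call, 8 gained it and 18 reversed, all 18 for members without a call. Between C1q-high and Chil3-high cells, F3 gave -0.61 from 1000 UMIs up and -0.289 to 1.727 with a library left out, F7 -0.022 with overlapping gates, and Plau -0.224 in lymphocyte libraries only and -0.224 to 1.11 with a library left out. In blood against lymphocyte Chil3-high cells, F10 gave 0.375 from 1000 UMIs up and 0.016 with the organ block, and Plaur -0.11 with the narrow gates. With a library left out, F10 ranged from -0.264 to 0.020, F13a1 from -0.008 to 1.252, F5 from -0.535 to 2.529 and Plaur from -0.309 to 1.18, with the reversals without kidney PBMC for F10 and without the library labelled heart TIL for the others. In Csf3r-positive cells, F10 gave 0.18 from 1000 UMIs up and -0.739 to 0.033 with a library left out, Plaur -0.037 to 1.281 and Thbs1 -3.075 to 6.042. Between Csf3r-positive and Chil3-high cells of blood F5 gave -0.298 to 0.944. DESeq2 gave no adjusted p for 6 of the members' tests. A filter on cells over 10% mitochondrial UMIs changed no class sum, so under it every fold change could only stay the same. Between C1q-high and Chil3-high cells, the fit with lymphocyte libraries only is the same as that without liver PC. Of 420 member levels, 76 left the 95% interval of the level given, 30 with gates on thinned cells, 22 from 1000 UMIs up, 16 with the narrow gates, 8 with overlapping gates and 0 without shared barcodes.

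With the organ as a block over 2 pairs, 2 members were called in Chil3-high cells, F7 and Thbs1 (-3.46, edgeR adjusted p = 0.0349). In Csf3r-positive cells 1360 genes and 2 members were called with the block, F13a1 (1.55, adjusted p = 0.0145) and Thbs1 (-2.53, adjusted p = 0.0176). The latter call leans on the library labelled liver TIL, without which the unblocked Thbs1 log2 fold change was 6.042. Depth limits F5, F3, Thbd and Plau, with 65 to 135 UMIs each, and every class of the kidney libraries.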

Other observations

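Partners and makers of the clotting factors were read in the same contrasts. Of 7 receptor partners of thrombospondin and urokinase receptor, all 7 were tested in C1q-high cells of tissue and 4 were higher than in T cell gate cells, where 18.9% of all genes were higher and 37.8% called either way. These were Itgam (log2 fold change 1.95, SE 0.14) and Itgb2 (0.59, SE 0.13), the chains of the Mac-1 integrin, Cd36 (2.08, SE 0.20), a scavenger receptor that binds thrombospondin, and Lrp1 (2.003, SE 0.14). The same 4 genes, of 6 tested in each class, were higher in Chil3-high cells, at 2.15, 0.53, 1.96 and 1.96, and in Csf3r-positive cells, at 2.06, 0.65, 1.71 and 1.49 (edgeR adjusted p of 0.0120 or less). Of all genes tested, 17.1% were higher in Chil3-high cells and 17.8% in Csf3r-positive cells.

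Among 6 genes of factor synthesis and the vitamin K cycle, 3 were higher in C1q-high cells than in the T cell gate, against the same 18.9% of all genes. Mcfd2, part of the cargo receptor for factors V and VIII, was at 1.20 (SE 0.14), Vkorc1, which recycles vitamin K, at 0.88 (0.16), and Furin, a proprotein convertase, at 0.83 (0.18). In the fibrinolysis list S100a10, the partner of Anxa2, was lower in all 3 myeloid classes, at -0.67, -0.76 and -0.77 for C1q-high, Chil3-high and Csf3r-positive cells, while Anxa2 was lower in C1q-high cells (-0.66) and higher in Csf3r-positive cells (0.38, edgeR adjusted p = 0.0469). The difference between the classes was not tested.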
